A study of Arabidopsis thaliana with 21 samples.

Results

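The transcripts described here are those that rose strongly in Arabidopsis thaliana plants after 8 h with arsenate and stayed near the control level with a high dose of phosphate. They are 127 of the 22746 probe sets of the Affymetrix ATH1 array (0.558%), where a probe set is the group of short probes that reads 1 transcript or a few similar ones. A probe set was taken as a member when its mean over the 3 arsenate arrays exceeded its control mean by at least 3 on the log2 scale (8-fold) and its mean over the 3 arrays with 1 mM phosphate lay within 0.7 (1.62-fold) of the control mean. The measured values therefore chose the members, and the differences of arsenate and of 1 mM phosphate from control are given below as a description, with no test.

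All plants were wild type of the Col-0 ecotype. Per the labels they grew for 7 days on Johnson medium with 1 mM phosphate and for 2 days on medium without phosphate, and then went into liquid medium, so every group, the control included, had been deprived of phosphate. The 4 groups spent 8 h in that liquid medium with no supplement (the control), with 30 µM arsenate, with 30 µM phosphate or with 1 mM phosphate. Each group had 3 independent biological samples, each on its own array, and the labels name plants without naming an organ. The description field of the 1 mM samples gives the 30 µM dose, and they were grouped by their title, source name and supplement, which give 1 mM. Array medians lay between 5.02 and 5.18 (log2), and replicate arrays of a group correlated across probe sets with Pearson's r between 0.9813 and 0.9952. The precision of every value is limited by 3 arrays a group.

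Arsenate resembles phosphate and enters root cells through phosphate transporters. Inside the cell it can take the place of phosphate in metabolism, and plants reduce it to arsenite, which binds thiol groups and is held by glutathione and phytochelatins. The comparison with phosphate at an equal dose and at a high dose addresses which responses to arsenate also occur when phosphate itself is supplied. No table given here links ATH1 probe sets to genes, so the members are described by their values, no role or sequence is given, and 4 probe sets are identified: the 2 with the largest rise under arsenate and the 2 that were lower with 30 µM phosphate. Other members are identified by their rank, from 1 for the largest difference between arsenate and control. The tissue could not be checked against marker genes for the same reason.

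**Figure D1:**
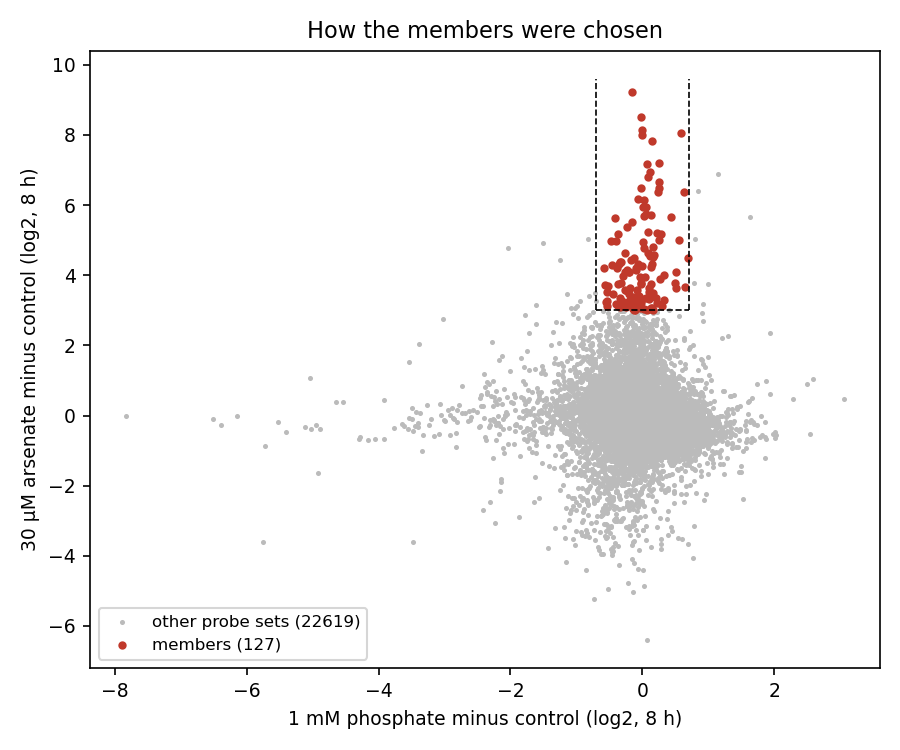
Each point is 1 probe set, with 1 mM phosphate minus control on the x axis and 30 µM arsenate minus control on the y axis (both log2 differences of group means, n = 3, 8 h). The dashed lines are the limits of the rule, and the 127 members in red lie between 3.01 and 9.21 on the y axis.

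The arsenate limit alone was met by 147 probe sets, and the phosphate limit removed 20 of them. In 13 of these 20 the 1 mM phosphate mean was below control, with differences from -0.70 to -2.04, and in 7 it was above, by 0.78 to 1.64. The 3 members nearest the arsenate limit had differences of 3.01, 3.02 and 3.02. The nearest probe sets outside it had 2.997, 2.987 and 2.983. The members nearest the phosphate limit differed from control by 0.68, 0.64 and 0.62 with 1 mM phosphate, and the nearest outside by -0.70, -0.72 and 0.78. The limits therefore cut through a continuous range: an arsenate limit of 2 would take 349 probe sets and one of 4 would take 64.

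Among the 127 members the difference between arsenate and control ran from 3.01 to 9.21 with a median of 4.01, whereas the median over all probe sets was -0.02. A group of 17 members differed by at least 6, 47 by 4 to under 6, and 63 by 3 to under 4. Their control means ran from 3.36 to 8.23 (log2 level, median 4.79) and their arsenate means from 6.43 to 13.39 (median 9.41). In the control group, 20 members had a mean below 3.68, the lower quartile of all probe sets, and 55 had one at or above the overall median of 5.09. The members thus included both probe sets near the floor of the array and probe sets with a clear signal in untreated plants: 11 lay above the upper quartile of 7.06 and still differed by 3.05 to 4.57. The summarised values are compressed near the floor and near the top of the scale, where array maxima lay between 13.66 and 13.91. Under arsenate 4 members had a mean within 1 log2 unit of the lowest of these maxima. The sizes given for these 4 and for the 20 with a low control mean may therefore be compressed, which was not measured.

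**Figure D2:**
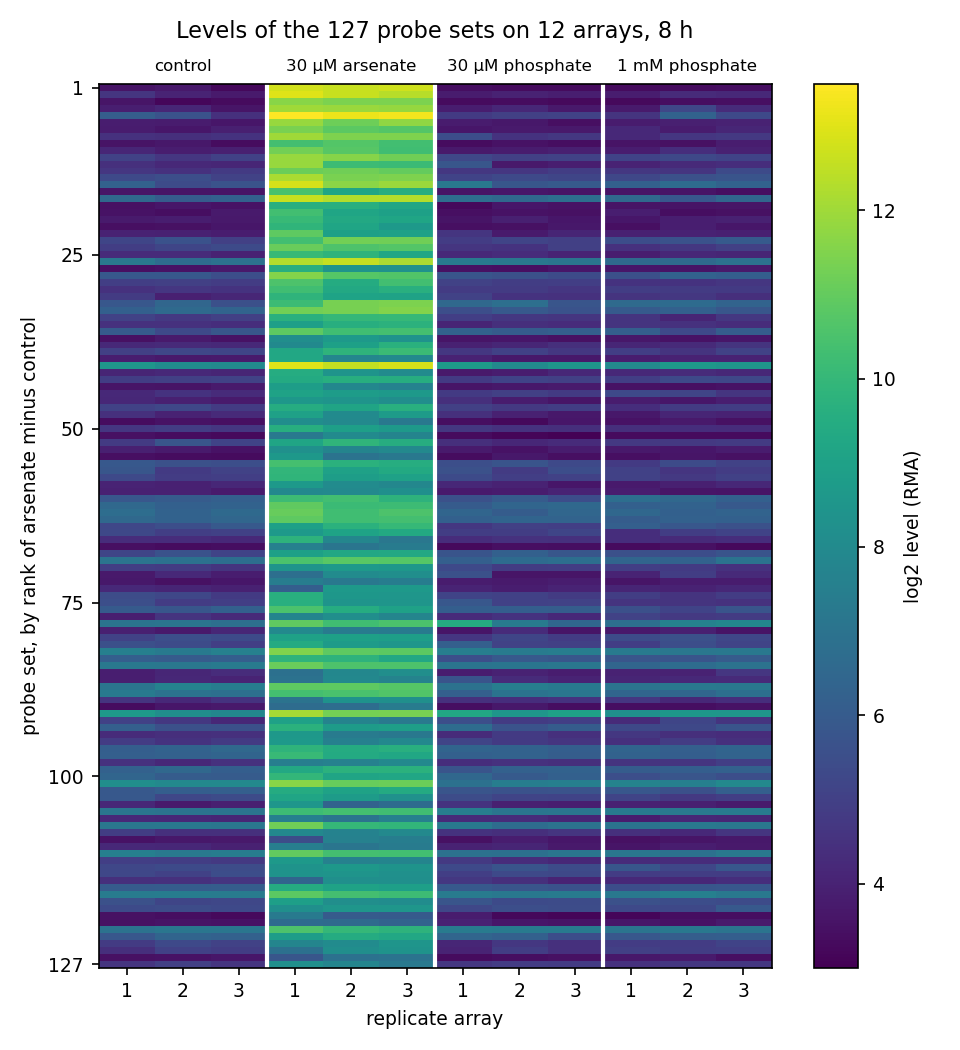
Each row is 1 of the 127 members, ordered by arsenate minus control from 1 to 127, and each column is 1 of the 12 arrays at 8 h, with the log2 level in colour. The 3 arsenate columns are brighter than the 9 other columns in every row.

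The probe set 250351_at had the largest difference. Its log2 levels were 3.56, 3.71 and 3.24 on the control arrays and 12.80, 12.60 and 12.75 on the arsenate arrays. With 30 µM phosphate they were 3.38, 3.29 and 3.31, and with 1 mM phosphate 3.29, 3.36 and 3.38. The 3 arsenate arrays stood far above the other 9, whose values lay within a narrow band near the floor of the array. The control mean was 3.50 ± 0.24 and the arsenate mean 12.72 ± 0.10 (SD, n = 3), a difference of 9.21. Its control level lay below the lower quartile and its arsenate level within 1 log2 unit of the lowest array maximum. This difference may therefore be compressed at both ends, and no fold is given.

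The probe set 260978_at came second, with control levels of 4.63, 4.06 and 3.74 and arsenate levels of 12.98, 12.63 and 12.38. Its levels were 3.78, 4.01 and 3.89 with 30 µM phosphate and 3.84, 4.29 and 4.23 with 1 mM phosphate. All phosphate arrays lay inside the range of the controls. The arsenate mean of 12.66 ± 0.30 exceeded the control mean of 4.14 ± 0.45 by 8.52, also with an arsenate mean near the top of the scale. The member with the highest arsenate mean, ranked 5, had control levels of 6.10, 5.64 and 4.47. Its arsenate levels were 13.66, 13.21 and 13.31, the first of which is the maximum of that array. Its control arrays spread more than its arsenate arrays.

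**Figure D3:**
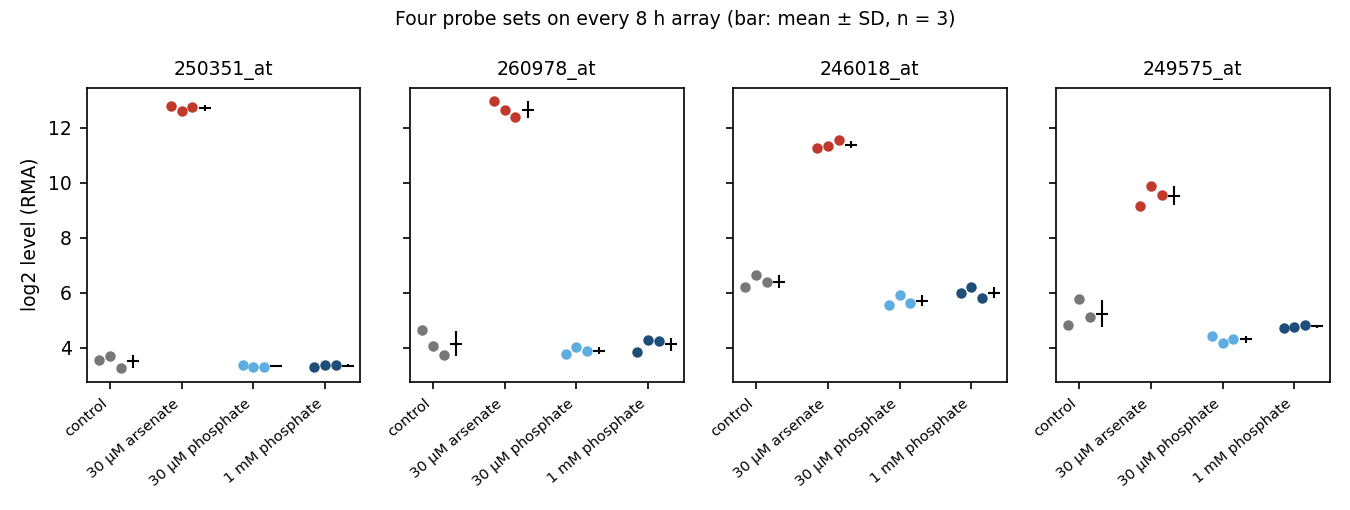
The log2 level of 4 probe sets on each of the 12 arrays, by group, with points for arrays and black marks for the mean ± SD (n = 3). In all 4 the arsenate arrays lie above every other array. In 246018_at and 249575_at the 30 µM phosphate arrays lie below the control arrays.

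The 30 µM phosphate arrays were not used to choose the members, so their comparison with control is the test that the design allows. The rule did use the control arrays, and it removed probe sets whose 1 mM phosphate mean lay away from them. Small differences at 30 µM are therefore favoured by the choice. All probe sets, which passed no such limit, are not a like background. The question is whether the same molar dose of phosphate also moved these transcripts. With limma over all 22746 probe sets, 0 members were higher and 2 were lower at a Benjamini-Hochberg adjusted p under 0.05, that is 1.57% of the members. Over all probe sets 3.87% were called, 2.35% higher and 1.52% lower, so the share of members was near the background, and nothing is read from it about the members in particular. At an unadjusted p under 0.05 there were 4 members higher and 9 lower (10.2%), beside 15.8% of all probe sets. All 3 of the 30 µM arrays lay above all controls in 8 members (6.30%, beside 10.4% of all probe sets) and below all controls in 11 (8.66%, beside 9.58%). With the replicate number as a block on the arrays of all groups, 1 member was higher (0.787%, beside 3.07% of all probe sets in that fit) and 3 were lower (2.36%, beside 2.00%). Same-numbered arrays deviated together for the 2 groups compared but not for pairs with 1 mM phosphate, so that block is not borne out for every group. With the block on only the 2 groups compared, added after seeing the data, 3 members were higher and 3 lower. The share of all probe sets called in that fit is not given, so nothing is read from these counts about the members. In that fit 249575_at was not called (adjusted p = 0.056, limma). The count of higher members thus depended on the fit.

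Most members stayed close to control at this dose, which the limit on 1 mM phosphate favours. The difference between 30 µM phosphate and control ran from -0.94 to 0.83 over the 127 members, with a median of -0.05 and quartiles of -0.18 and 0.12. A difference of 0.7 or more in size occurred in 4 members (3.15%), beside 3.89% of all probe sets. It was under 0.3 in size for 97 members (76.4%), beside 79.2% of all probe sets. The 30 µM mean was below control in 74 members (58.3%, beside 50.2% of all probe sets) and above it in 52 (40.9%, beside 49.0%). Among the 3 groups without arsenate, the 30 µM mean was the lowest in 48 members, the highest in 37 and in between in 42. The 95% moderated intervals had a median half-width of 0.444. They lay wholly between -1 and 1 for 106 members, and the upper bound stayed under 2 in 126 and under 3 in 127. A rise as large as the smallest one under arsenate was thus outside the interval of each member.

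**Figure D4:**
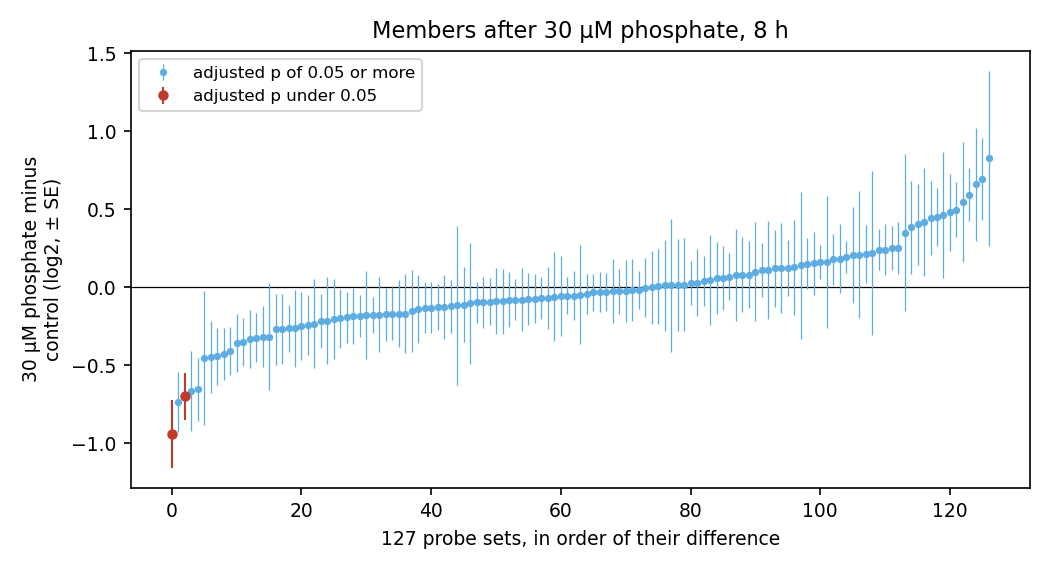
The difference between 30 µM phosphate and control (log2, ± moderated SE, 3 arrays a group) for each of the 127 members, in order of size. The 2 red points are the members with an adjusted p under 0.05, both lower, and the differences run from -0.94 to 0.83.

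The 2 members that were lower with 30 µM phosphate also ranked 33 and 52 for their rise under arsenate. The probe set 246018_at had control levels of 6.20, 6.64 and 6.37 and 30 µM phosphate levels of 5.54, 5.93 and 5.64. The groups did not overlap, and the 1 mM phosphate levels of 5.98, 6.22 and 5.80 reached into the control range. It fell by 0.70 ± 0.151 with 30 µM phosphate (SE, adjusted p = 0.027, limma, n = 3). Under arsenate it reached 11.27, 11.35 and 11.54.

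The probe set 249575_at had control levels of 4.84, 5.77 and 5.10, and levels of 4.42, 4.17 and 4.30 with 30 µM phosphate. Again the groups did not overlap, and the spread lay mostly in the controls. It fell by 0.94 ± 0.218 (SE, adjusted p = 0.037, limma, n = 3). With 1 mM phosphate its levels were 4.73, 4.75 and 4.83, just under the lowest control, and with arsenate they were 9.17, 9.87 and 9.54. Both calls were lost when only the 2 groups compared entered the fit (adjusted p 0.063 and 0.083). They were also lost without 30 µM phosphate replicate 1 (0.071 and 0.052) or 3 (0.11 and 0.12), and without control replicate 2 (0.12 and 0.11) or 3 (0.084 and 0.088). The call of 249575_at was lost without 30 µM phosphate replicate 2 as well (0.11).

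At the equal dose of 30 µM, the difference between arsenate and phosphate ran from 2.66 to 9.39 over the members, with a median of 4.11. Every member had all 3 arsenate arrays above all 3 of the 30 µM phosphate arrays, as did 17.5% of all probe sets. All 127 were called higher by limma, beside 13.4% of all probe sets. The rule chose the members for high arsenate arrays, so these counts describe the choice.

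The 3 low groups were close together in most members, which the limit on 1 mM phosphate favours. The range of the means of control, 30 µM and 1 mM phosphate had a median of 0.26 and a maximum of 0.99. All 9 arrays without arsenate lay below all 3 arsenate arrays in 127 of 127 members (10.4% of all probe sets), a count that the rule nearly fixes. The gap between the lowest arsenate array and the highest other array had a median of 3.35 and ran from 0.84 to 8.89. The smallest gap belonged to the member ranked 78, whose levels were 9.45, 7.37 and 6.51 with 30 µM phosphate, 6.98, 7.05 and 6.82 in the controls and 10.95, 10.29 and 10.53 with arsenate. There 1 phosphate array alone came near the arsenate arrays. Its 30 µM difference of 0.83 had the widest replicate spread of the members (SD 1.51) and an adjusted p of 0.55.

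The dose of phosphate was compared as a description, because the rule had already limited the 1 mM group. The difference between 1 mM and 30 µM phosphate ran from -0.78 to 0.99 over the members with a median of -0.02. By limma at an adjusted p under 0.05, 2 members were higher with 1 mM (1.57%, beside 4.38% of all probe sets) and 0 were lower (beside 5.49%), and 13 of the members had an unadjusted p under 0.05 (10.2%, beside 27.1% of all probe sets). Neither of the 2 was among those called at 30 µM phosphate against control. The difference between 1 mM phosphate and control had a median of -0.02 and ran from -0.58 to 0.68, inside the limits set by the rule.

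Over the members, the arsenate arrays differed among themselves more than the arrays of the other groups did. The rule chose the members by the mean of these arsenate arrays, so their spread and order are given as a description. All probe sets, which passed no such limit, are not a like background here. The SD over 3 arrays had a median of 0.38 for the members under arsenate, against 0.17 in the controls, 0.18 with 30 µM phosphate and 0.17 with 1 mM phosphate. Over all probe sets the corresponding medians were 0.16, 0.14, 0.14 and 0.14. The SD was larger under arsenate than in the controls for 104 members (81.9%), beside 56.6% of all probe sets. Arsenate replicate 1 was the highest of the 3 in 82 members (64.6%, beside 36.0% of all probe sets), replicate 2 in 23 (18.1%, beside 35.1%) and replicate 3 in 22 (17.3%, beside 26.4%). Replicate 1 lay above the mean of the other 2 by a median of 0.42, and the same quantity had a median of -0.02 over all probe sets. Replicate 1 was highest in 15 of the 17 members that differed by at least 6, in 30 of the 47 that differed by 4 to under 6 and in 37 of the 63 below that. It was also highest in 10 of the 11 members with a control mean above the upper quartile, and differences between these groups of members were not tested.

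Some members went the other way. Replicate 1 was at least 1 log2 unit above both other arsenate arrays in 17 members and at least 1 unit below both in 8. No share of all probe sets is given for these counts, so they only describe the members. The widest spread was that of the member ranked 73, with arsenate levels of 6.14, 8.70 and 8.68 and control levels of 4.21, 4.09 and 3.98. Even its lowest arsenate array lay clearly above every control. Measured from the control mean, the median over the members was 4.20 on arsenate replicate 1, 3.93 on replicate 2 and 3.92 on replicate 3. What distinguished replicate 1 was not tested.

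**Figure D5:**
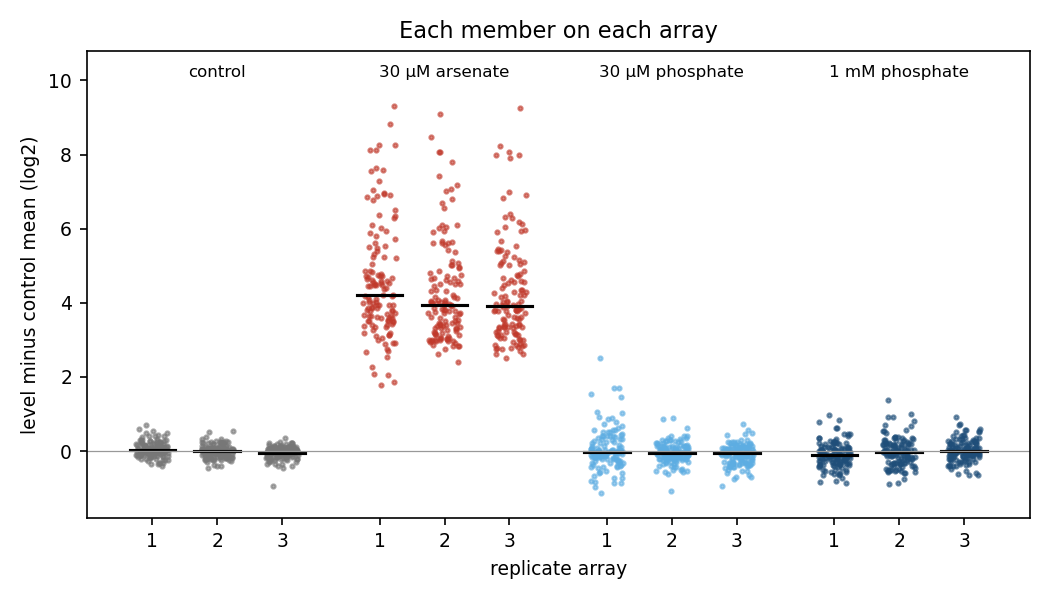
The level of each of the 127 members on each of the 12 arrays, as a log2 difference from its own control mean; black bars are medians over the members. The medians are 4.20, 3.93 and 3.92 on the arsenate arrays and between -0.11 and 0.04 on the other 9, and 30 µM phosphate replicate 1 holds the highest single points outside arsenate.

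Among the arrays without arsenate, 30 µM phosphate replicate 1 stood apart. It was the highest of the 9 in 30 members (23.6%) and the lowest in 24 (18.9%), and over all probe sets it was also often the highest (18.2%) or the lowest (21.0%). On it 7 members lay 1 log2 unit or more above their control mean, beside 0 on replicate 2 and 0 on replicate 3. No share of all probe sets is given for this count. Downward, the lowest member value from the control mean was -1.13 on replicate 1, -1.07 on replicate 2 and -0.94 on replicate 3. The medians of the 3 arrays over the members were -0.03, -0.05 and -0.06 from control. Without this replicate 0 members were called in the comparison of 30 µM phosphate with control, and the count was also 0 without 30 µM phosphate replicate 3, control replicate 2 or control replicate 3.

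The rule was applied again with 1 replicate number left out at a time, and each new choice was read in the arrays left out. These choices shared most of their probe sets with the members, and the choice of the members had used the left-out arrays too. All arrays were also summarised together. The values below are therefore a description of the rule and no separate evidence for the members. When replicate 1 was left out of the control, arsenate and 1 mM groups, the rule took 130 probe sets, 112 of them members, with a median difference between arsenate and control of 3.92. In the replicate left out, arsenate replicate 1 minus control replicate 1 had a median of 3.97 over these 130. It was at least 3 in 105, above 0 in 130 and at its lowest 0.31. With replicate 2 left out, the 125 chosen had a median of 3.95 in the left-out arrays and all were at least 2, with 105 at least 3. With replicate 3 left out, the 132 chosen had a median of 3.94 in the left-out arrays, again with all at least 2 and 105 at least 3. The medians in the left-out arrays stayed within 0.05 of those in the arrays that chose (3.92, 3.98 and 3.96). The phosphate limit of 0.7 was met in the left-out arrays by 105 of the 130, 119 of the 125 and 124 of the 132.

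The names of the probe sets carry 1 further feature that the rule did not use. A suffix of s_at marks, in the manufacturer's naming, a probe set whose probes match more than 1 transcript. There were 4 such members (3.15%), ranked 6, 44, 53 and 90, beside 4.11% of all probe sets, and the other 123 carried the plain suffix. The values of these 4 cannot be assigned to a single transcript. They differed between arsenate and control by 3.39 to 7.84 and between 30 µM phosphate and control by -0.12 to 0.06.

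The members were also set beside the 20 probe sets that the phosphate limit removed. Of the 7 that were higher with 1 mM phosphate, 1 was called higher with 30 µM phosphate (median difference 0.46). Of the 13 that were lower with 1 mM phosphate, 2 were called lower with 30 µM phosphate (median -0.40). Both doses were measured against the same control arrays, so these values are given side by side and not as separate evidence.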

How the data were processed

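Transcript levels came from 12 Affymetrix ATH1 arrays, 3 per group, hybridised with biotin-labelled cRNA. The deposited values are log2 expression that the authors summarised with RMA, per the submitters' processing notes; no version, probe annotation or genome build is named there. The method subtracts background, gives all arrays 1 distribution and summarises each probe set, so any change shared by most transcripts is lost and low values are compressed. Values are given to 2 decimals. Of 22810 rows, the 64 that hold array controls were dropped. The table of the 9 arrays at 1.5 h was not used, because its features name loci that could not be paired with ATH1 probe sets; the planned 1.5 h tests and gene lists were therefore not run.

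Groups and replicate numbers came from the titles. The limma package (3.58.1, in R 4.3.3) fitted every contrast on all 12 arrays with lmFit, contrasts.fit and eBayes, two-sided, Benjamini-Hochberg adjustment over 22746 probe sets, called at an adjusted p under 0.05. The fit was tested on simulated data. Nothing was filtered in the main fit. P-values measure the spread between samples stated to be independent biological samples. Members and lists were chosen with earlier results of these data known. Probe sets were named by rule: at most 2 per direction, by size of the difference (called ones with 30 µM phosphate); groups of members by size and control level, members identified by rank, and the phosphate and replicate counts by array were chosen after the values were seen. Same-numbered arrays deviated together for control and 30 µM phosphate (correlations of deviations from group means 0.13 to 0.42 over the 3 pairs) and for arsenate with each (0.16 to 0.49), whereas pairs that include 1 mM phosphate did not (-0.20 to 0.07). The numbers are those in the titles, and no label says what they share. The alternatives were the replicate number as a block, median centring, quantile normalization, compared groups only, trended robust eBayes, a filter on dim probe sets and leaving out each array.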

Additional observations from a re-analysis of the deposited data

How the results depend on the processing

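The number of members, 127, was 130 after median centring (126 shared) and 121 after a further quantile normalization (120 shared), and lay between 125 and 135 without any 1 array or any 1 replicate number, with 112 to 126 shared. Members higher with 30 µM phosphate than control numbered 0 in the main setting. With the replicate block there was 1, and with the replicate block and only the groups compared, added after seeing the data, there were 3. Members lower with 30 µM phosphate numbered 2. There were 0 with only the groups compared, where the shared estimate of spread rests on fewer arrays. With the replicate block there were 3, and 3 after median centring, with trended robust eBayes and with dim probe sets left out; in these 4 settings the 2 main calls were kept. With the replicate block on the groups compared there were also 3, of which 1 was shared, and 249575_at did not pass (adjusted p = 0.056). Leaving out 1 array gave 0 to 2 lower and 0 to 0 higher members: 0 without 30 µM phosphate replicate 1 or 3 or control replicate 2 or 3, 1 without 30 µM phosphate replicate 2, and 2 without control replicate 1. The cause was not tested. For the alternative fits of 30 µM phosphate against control, the share of all probe sets is given only for the replicate block on all groups. The other counts are not set against such a share, and nothing is read from them about the members in particular. The calls of arsenate over 30 µM phosphate, 127 higher and 0 lower, were the same with the replicate block, with median centring and without any 1 array of the groups compared. The rule chose the members for high arsenate arrays, those left out included, so this constancy describes the choice. All 127 members passed the filter on dim probe sets (14694 kept), which a high arsenate mean alone satisfies. The settings intended for the 1.5 h contrasts were not run.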

Other observations

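Smaller rises under arsenate were read in the same way. Under the same limit on 1 mM phosphate, 222 probe sets differed between arsenate and control by 2 to under 3 and 701 by 1 to under 2. With 30 µM phosphate, 2 of the 222 were called higher and 3 lower (2.25%), and 5 of the 701 higher and 5 lower (1.43%), beside 3.87% of all probe sets. The 3 sets share the control arrays and the limit on 1 mM phosphate.

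Arsenate replicate 1 was the highest of the 3 arsenate arrays in 129 of the 222 (58.1%) and in 418 of the 701 (59.6%), beside 36.0% of all probe sets and 64.6% of the 127 members. Replicate 1 lay above the mean of the other 2 by a median of 0.27 in the 222 and 0.24 in the 701, and by 0.42 in the members. All of these sets were chosen by the mean of the same arsenate arrays, so the values are a description. The difference between the sets was not tested.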
